A study of Mus musculus with 45 samples.

Results

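The genes described here are 9 genes of stellate cell activation and matrix remodelling, namely *Pdgfb*, *Tgfb1*, *Pdgfrb*, *Acta2*, *Des*, *Timp1*, *Lox*, *Loxl2* and *Mmp2*. They were listed by name and matched by Ensembl gene ID, with no threshold on a measured value, and are 9 of 39179 annotated genes. All 9 had more than 4 aligned reads in at least 1 sample, the criterion for detection, which 17464 genes met. Hepatic stellate cells are the vitamin A storing pericytes of the liver sinusoid. When they are activated they lose their lipid stores, divide in response to platelet-derived growth factor (PDGF), take on contractile filaments under transforming growth factor beta (TGF-beta) and secrete fibrillar collagen. The collagen is cross-linked by lysyl oxidases, cut by matrix metalloproteinases (MMPs) and protected from them by tissue inhibitors (TIMPs), and the balance of these enzymes and inhibitors is a classical reading of liver fibrosis.

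Hepatic RNA was sequenced from 45 female C57BL/6 mice, 5 in each of 9 groups. The vehicle group received sesame oil by oral gavage, and the others were given TCDD in the same oil, in doses of 0.01, 0.03 and 0.1 µg/kg (low), 0.3, 1 and 3 µg/kg (middle) and 10 and 30 µg/kg (high). TCDD is a dioxin and a potent ligand of the aryl hydrocarbon receptor, a transcription factor. Gavage was every 4 days, starting on postnatal day 28, and livers were collected at 28 days. The labels also describe the gavage as daily and the mice as ovariectomized, neither of which appears in the study's methods. Whole liver was homogenized, so no cell type was separated.

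Libraries held 11.8 to 56.5 M reads on genes (median 17.2 M). *Cyp1a1*, the classical target of the aryl hydrocarbon receptor, had a median of 5.49 CPM (reads of the gene scaled to library size and composition by TMM, a trimmed mean) in vehicle mice and 7283 CPM at 30 µg/kg, and its group medians increased with every dose from 0.03 µg/kg upward. The livers had the hepatocyte markers of their label, with 8 such genes summing to between 114100 and 152400 CPM in vehicle mice. Of 15 stellate cell identity genes, all were detected, and they summed to between 293 and 402 CPM in vehicle mice. A pair of libraries at 0.01 µg/kg stood apart. Replicate 2 had 2.93 CPM of *Xist*, the transcript that silences an X chromosome, against 1112 to 2844 CPM in the other 44, while 4 Y-linked genes had 0 reads in all libraries. Replicate 5 had 69.7 CPM of *Cyp1a1* against 1.18 to 4.54 CPM in the rest of its group. Without both libraries 6 of the 9 genes were called at 30 µg/kg, 1 was called at 10 µg/kg and 0 from 0.03 to 3 µg/kg, the same counts as with them.

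The 9 genes were compared with vehicle at each dose to ask at which dose, and in which of them, hepatic transcript levels changed. At 30 µg/kg, 6 of the 9 were higher than in vehicle mice and none was lower (quasi-likelihood test of edgeR, adjusted p under 0.05). They were *Pdgfb*, *Tgfb1*, *Timp1*, *Lox*, *Loxl2* and *Mmp2*. Of all genes tested, 15.5% were called higher at that dose and 29.6% in either direction. In bulk tissue, more cells of a type and more RNA per cell cannot be told apart. The median log2 fold change of the 9 genes at 30 µg/kg was 0.84, and that of all genes was 0.02. With a fold change of at least 2 also required, 4 of the 9 were called higher (*Pdgfb*, *Timp1*, *Lox* and *Loxl2*), against 8.03% of all genes. DESeq2's Wald test gave log2 fold changes of 1.48 for *Pdgfb*, 2.31 for *Timp1*, 2.1 for *Lox* and 1.36 for *Loxl2*, all at adjusted p under 0.05. On the variance-stabilized scale limma gave smaller differences of 0.90, 0.78, 1.17 and 0.68 for these 4, also at adjusted p under 0.05. At counts as low as theirs that scale is not a log2 scale, so its differences cannot be held to a fold change of 2. *Loxl2* was the 1 gene whose 5 mice at 30 µg/kg all lay above every vehicle mouse, a separation that 10.3% of all genes showed.

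At 10 µg/kg only *Pdgfb* was called, with 8.47% of all genes called higher and 15.9% in either direction. All 9 genes had a mean log2 fold change above 0 at that dose, with a median of 0.54 against 0.02 for all genes, and none had all 5 mice above every vehicle mouse (8.1% of all genes did). At 3 µg/kg 0 of the 9 were called, against 7.54% of all genes, and none separated fully from vehicle mice (4.6% of all genes did). No call was made at the lower doses either, where the background was 1.76% of genes for the dose of 1 µg/kg, 0.464% for 0.3, 0.0229% for 0.1, 0.0573% for 0.03 and 0.0% for 0.01 µg/kg. A test of any difference among the 9 groups called 4 of the 9 (*Pdgfb*, *Timp1*, *Lox* and *Loxl2*), against 28.8% of all genes. The steps from 3 to 10 µg/kg and from 10 to 30 µg/kg were also tested, and neither called any of the 9, against backgrounds of 0.784% and 0.613%. The nearest were *Lox* (log2 change 1.35 ± 0.46 SE, unadjusted p = 0.00593, adjusted p = 0.268) and *Timp1* (1.62 ± 0.58, unadjusted p = 0.00833, adjusted p = 0.301) between 10 and 30 µg/kg.

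**Figure D1:**
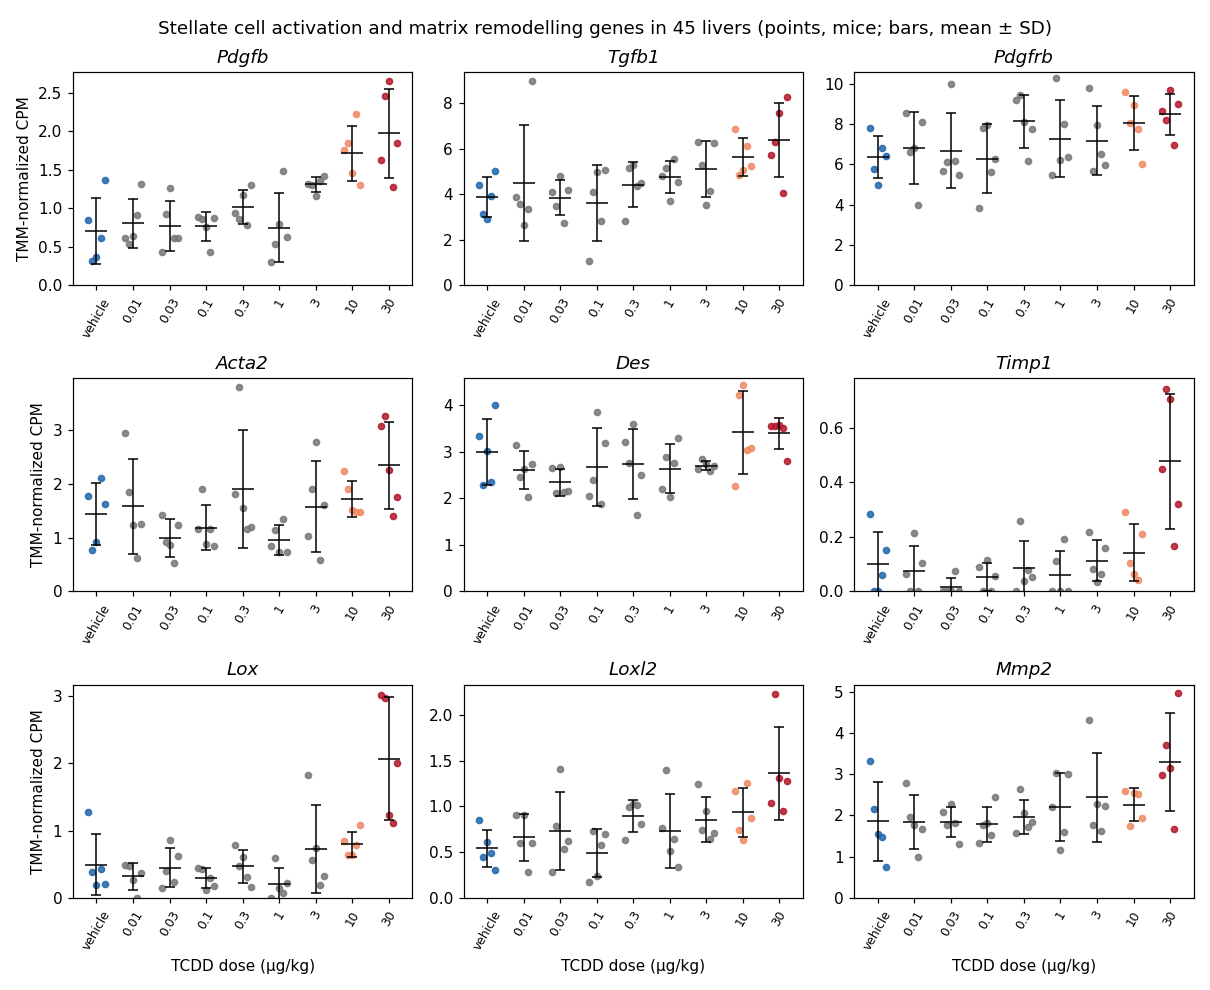
Normalized level of each of the 9 genes (vertical axes, TMM-normalized CPM) by dose (horizontal axes, µg/kg), with a point for each of 5 mice and a bar for the mean ± SD. *Lox* and *Timp1* have their highest mean at 30 µg/kg (2.07 and 0.478 CPM), and of the 9 genes only *Loxl2* at 30 µg/kg has all 5 mice above every vehicle mouse.

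*Pdgfb* (ENSMUSG00000000489, chr15:79995874-80014977, minus strand) encodes the B chain of PDGF, a strong mitogen for stellate cells that is made by endothelial cells, macrophages and platelets. Its level in the 5 vehicle mice was 0.849, 0.318, 0.370, 0.619 and 1.36 CPM, from 5 to 27 reads per mouse. Mice given 10 µg/kg had 1.75, 1.84, 1.46, 2.22 and 1.30 CPM, and those given 30 µg/kg had 1.62, 2.46, 2.65, 1.28 and 1.84 CPM. In both groups 4 of 5 mice were above every vehicle mouse, and the exception lay below vehicle replicate 5 alone. *Pdgfb* rose 2.38-fold with 10 µg/kg (log2 1.25 ± 0.32 SE, adjusted p = 0.00442) and 2.75-fold with 30 µg/kg (log2 1.46 ± 0.32, adjusted p = 0.0004). At 3 µg/kg the 5 mice lay close together, between 1.16 and 1.41 CPM, and the mean was 1.82 times that of vehicle (adjusted p = 0.0929). This difference passed the threshold when vehicle replicate 5 was left out (log2 1.28, adjusted p = 0.0174). Group means from 0.01 to 1 µg/kg, between 0.748 and 1.01 CPM, were within 1 SD of the vehicle mean of 0.704 ± 0.426 CPM (SD, n = 5).

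*Tgfb1* (ENSMUSG00000002603, chr7:25687002-25705077, plus strand) encodes TGF-beta 1, the main inducer of collagen synthesis in stellate cells, and in liver much of it comes from macrophages. The vehicle mice had 4.39, 3.12, 2.90, 3.90 and 5.004 CPM. At 30 µg/kg the levels were 5.72, 6.30, 7.57, 4.07 and 8.26 CPM, with replicate 4 inside the vehicle range and the other 4 above it. The rise at 30 µg/kg was 1.65-fold (log2 0.72 ± 0.27 SE, adjusted p = 0.0402). It sat close to the threshold, and the adjusted p passed above 0.05 without any 1 of 6 mice, namely vehicle replicates 2 (0.0922), 3 (0.102) and 4 (0.0624) and 30 µg/kg replicates 2 (0.0603), 3 (0.104) and 5 (0.117). The call was also lost with libraries thinned to the smallest (0.0618) and with all genes of at least 1 read tested (0.0529). The mean with 10 µg/kg was 5.63 ± 0.84 CPM, 1.46 times that of vehicle (adjusted p = 0.173). Group means were 4.49, 3.85 and 3.61 CPM at 0.01, 0.03 and 0.1 µg/kg, against 3.86 CPM in vehicle mice. The first includes replicate 5 at 8.98 CPM and the last includes replicate 1 at 1.07 CPM. Means at 0.3, 1 and 3 µg/kg were 4.42, 4.75 and 5.09 CPM, and *Tgfb1* was called at none of these doses. The test of any difference among groups did not pass for *Tgfb1* (adjusted p = 0.175).

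RefSeq's table of promoters held 4 of the 9 genes (*Acta2*, *Des*, *Tgfb1* and *Timp1*), of which *Tgfb1* and *Timp1* were called at 30 µg/kg. The 250 bases before their starts were searched on both strands for the core of the dioxin response element (GCGTG), which the aryl hydrocarbon receptor binds, for the AP-1 element (TGANTCA) and for the CArG box bound by serum response factor. The dioxin response element core was found once in each of the 2 called genes and in neither *Acta2* nor *Des*. Of 32851 promoter windows of that length, 28.2% held the core. The AP-1 element (6.7% of windows) and the CArG box (1.5%) had no exact match in any of the 4. Only exact matches were counted, so inexact CArG-like stretches, such as ccctatatgg in the *Acta2* window, were left out. The windows of the 2 called genes are printed 5′ to 3′ with the core in capitals, to show where it lies. That of *Tgfb1*, in GRCm38.p6 at chr7:25686752-25687001 on the plus strand, has the core on the minus strand (read here as CACGC), 118 bases before the start. That of *Timp1*, at chrX:20869916-20870165 on the plus strand, has it on the plus strand 206 bases before the start. A match of 5 bases is a description of the sequence and not a binding site.
Tgfb1: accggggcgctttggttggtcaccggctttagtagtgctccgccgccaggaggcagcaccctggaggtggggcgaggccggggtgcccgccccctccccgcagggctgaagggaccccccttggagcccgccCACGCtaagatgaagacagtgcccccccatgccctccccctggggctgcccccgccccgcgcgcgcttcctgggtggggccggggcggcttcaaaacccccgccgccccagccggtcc
Timp1: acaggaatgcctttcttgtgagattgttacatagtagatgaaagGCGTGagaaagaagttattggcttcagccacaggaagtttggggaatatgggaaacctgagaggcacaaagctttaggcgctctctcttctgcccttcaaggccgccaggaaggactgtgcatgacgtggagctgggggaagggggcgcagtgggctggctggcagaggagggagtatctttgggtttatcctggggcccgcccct

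*Pdgfrb* (ENSMUSG00000024620, chr18:61045150-61085061, plus strand) encodes the PDGF receptor beta chain, through which PDGF-B acts on stellate cells and other pericytes. Vehicle mice had 7.78, 5.79, 4.99, 6.81 and 6.42 CPM, and mice at 30 µg/kg had 8.65, 8.19, 9.69, 6.96 and 8.98 CPM. The 4 highest mice at 30 µg/kg were above every vehicle mouse and replicate 4 was not. The mean was 1.34 times that of vehicle (log2 0.42 ± 0.20 SE, 95% interval 0.04 to 0.81), which did not pass the adjustment (adjusted p = 0.103). It passed when only the vehicle and 30 µg/kg mice entered the fit (adjusted p = 0.0323) and when libraries were scaled by their totals alone (log2 0.64, adjusted p = 0.0171). The means from 0.01 to 3 µg/kg ran from 6.28 to 8.13 CPM in no order of dose, and the highest, at 0.3 µg/kg, was close to the 8.07 CPM at 10 µg/kg. Of the 4 other PDGF ligand and receptor genes, 2 rose at 30 µg/kg, namely *Pdgfra*, the alpha receptor (log2 0.78 ± 0.16, adjusted p = 0.000268), and the ligand gene *Pdgfd* (0.65 ± 0.20, adjusted p = 0.0102). The ligand genes *Pdgfa* (log2 -0.26, adjusted p = 0.366) and *Pdgfc* (0.22, adjusted p = 0.541) were not called. The count of 2 fell to 1 without replicate 1 or replicate 3 at 30 µg/kg.

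*Acta2* (ENSMUSG00000035783, chr19:34241090-34255590, minus strand) encodes alpha smooth muscle actin, the filament by which activated stellate cells are usually recognized, and *Des* (ENSMUSG00000026208, chr1:75360329-75368579, plus strand) encodes desmin, an intermediate filament of stellate cells in rodents. *Acta2* had 1.77, 0.763, 0.924, 2.10 and 1.62 CPM in vehicle mice and 3.07, 3.26, 2.26, 1.39 and 1.76 CPM at 30 µg/kg. A total of 3 of the 5 mice at 30 µg/kg were above the vehicle range. The mean was 1.64 times that of vehicle, with a log2 difference of 0.72 ± 0.35 SE and a 95% interval from 0.02 to 1.41 (adjusted p = 0.126). The *Acta2* estimate was therefore as large as that of *Tgfb1* with a wider error, and at 0.3 µg/kg replicate 2 alone reached 3.80 CPM. When libraries were scaled by their totals alone *Acta2* passed the threshold at 30 µg/kg (log2 0.95, adjusted p = 0.0388). *Des* had 3.33, 2.29, 3.02, 2.35 and 3.99 CPM in vehicle mice and 3.56, 3.55, 3.57, 3.51 and 2.81 CPM at 30 µg/kg, all within the vehicle range. Its log2 difference was 0.18 ± 0.19 with a 95% interval from -0.19 to 0.56 (adjusted p = 0.509), so a change of *Des* by 1.47-fold or more upward lay outside the interval. *Des* shares 220 exon bases with an antisense gene, *Gm15179*, which had 0 reads. If counting ignored strand, a read within the shared bases was assigned to neither gene, so the 0 reads do not show that the overlap took none.

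Of 11 other contractile and cytoskeletal genes, 4 rose and 1 fell at 30 µg/kg, with a median log2 fold change of 0.73 against 0.02 for all genes. The tropomyosin gene *Tpm1* (log2 1.07 ± 0.08, adjusted p = 3.48e-14), the intermediate filament gene *Vim* (1.08 ± 0.20, adjusted p = 3.98e-05) and *Tagln*, which encodes the actin-binding protein transgelin (0.85 ± 0.20, adjusted p = 0.00113), rose. *Tpm2*, another tropomyosin gene, fell by 2.25 on the log2 scale (adjusted p = 3.85e-08). *Tagln*, *Tpm1* and *Vim* are also expressed by endothelial cells, smooth muscle or leukocytes. Of the 15 stellate cell identity genes, 3 rose and none fell, with a median of 0.21. The share that rose was near the 15.5% of all genes called higher. The 3 were *Reln*, encoding the secreted protein reelin (log2 1.71 ± 0.15, adjusted p = 2.37e-12), *Hgf*, encoding hepatocyte growth factor (0.77 ± 0.25, adjusted p = 0.0175), and *Colec11*, encoding a collectin (0.41 ± 0.14, adjusted p = 0.0228). *Lrat*, the enzyme that esterifies retinol for storage, had a log2 difference of 0.50 ± 0.26 (adjusted p = 0.151). Scaled by library totals alone, 6 of the 15 were called higher.

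**Figure D2:**
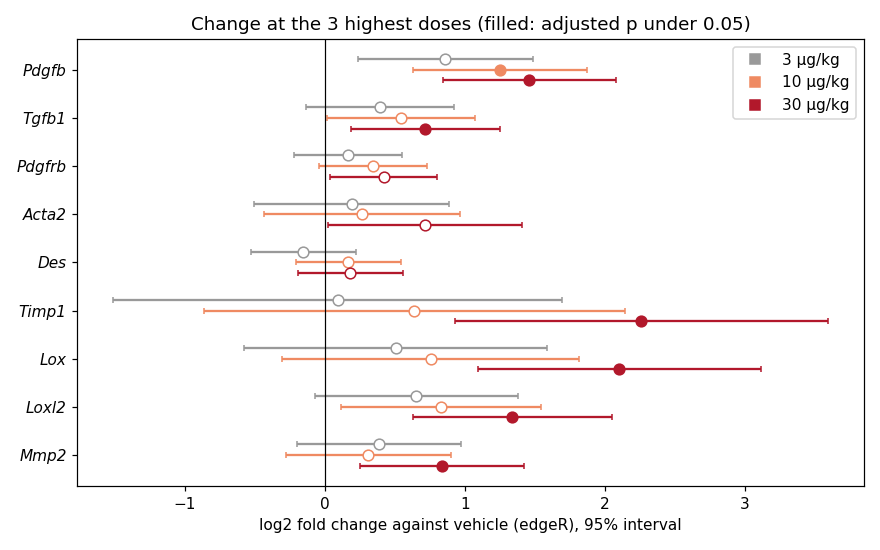
Log2 fold change against vehicle (horizontal axis) with its 95% interval for each of the 9 genes (vertical axis) at 3, 10 and 30 µg/kg, with filled points where the edgeR adjusted p was under 0.05. The 3 open points at 30 µg/kg are *Pdgfrb*, *Acta2* and *Des* (0.42, 0.72 and 0.18), and the 1 filled point at 10 µg/kg is *Pdgfb* (1.25).

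*Timp1* (ENSMUSG00000001131, chrX:20870166-20874735, plus strand) encodes an MMP inhibitor that is strongly induced in fibrotic liver, and it was the gene with the fewest reads of the 9. The vehicle mice had 4, 0, 0, 1 and 3 reads, which is 0.283, 0, 0, 0.0619 and 0.152 CPM. At 30 µg/kg the mice had 10, 13, 20, 3 and 4 reads, or 0.451, 0.744, 0.707, 0.167 and 0.321 CPM. All mice but replicate 4 lay above the vehicle range. *Timp1* rose 4.79-fold (log2 2.26 ± 0.68 SE, adjusted p = 0.00974), with a 95% interval from 1.91-fold to 12.1-fold. Without vehicle replicate 1 the log2 difference was 2.96. The difference on the variance-stabilized scale, which is not a log2 fold change at such counts, was 0.78 with all mice. No group from 0.01 to 10 µg/kg differed by the test, and group totals there ran from 1 read at 0.03 µg/kg to 19 reads at 10 µg/kg, so that smaller changes were not detectable at this depth. *Timp1* passed the detection filter in groups below 30 µg/kg as well, with up to 6 reads in a mouse at 0.3 µg/kg, but a stricter filter (edgeR's filterByExpr) removed it. It lies within an intron of *Syn1* and shares 0 exon bases with it.

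Among its relatives, *Timp2* (log2 0.55 ± 0.16, adjusted p = 0.006) and *Timp3* (0.98 ± 0.20, adjusted p = 0.000217) rose at 30 µg/kg, and *Timp4* was under the detection criterion. *Timp3* had 76.5 ± 5.3 CPM (SD, n = 5) at 30 µg/kg. Summed, *Timp2* and *Timp3* had 40.1 to 55.8 CPM in vehicle mice and 86.2 to 97.2 CPM at 30 µg/kg, ranges that did not overlap.

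*Lox* (ENSMUSG00000024529, chr18:52516067-52529867, minus strand) encodes lysyl oxidase, which oxidizes lysines of collagen and elastin so that the fibres cross-link. The vehicle mice had 1.27, 0.382, 0.185, 0.433 and 0.202 CPM, with replicate 1 well above the rest. At 30 µg/kg the levels were 3.02, 2.98, 1.24, 1.11 and 2.004 CPM, so that replicates 3 and 4 lay just below vehicle replicate 1 and above the other 4 vehicle mice. *Lox* rose 4.29-fold (log2 2.10 ± 0.52 SE, adjusted p = 0.00163), with a 95% interval from 2.13-fold to 8.64-fold. Leaving out vehicle replicate 1 gave a log2 difference of 2.78. *Lox* at 10 µg/kg had 0.796 ± 0.188 CPM (SD, n = 5; log2 0.76 ± 0.54 SE, adjusted p = 0.377), and all 5 mice at 30 µg/kg exceeded all 5 at 10 µg/kg, as in 1.17% of all genes. Means at the lower doses lay between 0.205 CPM at 1 µg/kg and 0.727 CPM at 3 µg/kg.

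*Loxl2* (ENSMUSG00000034205, chr14:69609068-69695834, plus strand) encodes a relative of lysyl oxidase that also cross-links collagen. It had 0.849, 0.445, 0.616, 0.495 and 0.303 CPM in vehicle mice and 1.04, 2.23, 1.31, 0.947 and 1.28 CPM at 30 µg/kg, and these groups did not overlap. The rise was 2.53-fold (log2 1.34 ± 0.36 SE, adjusted p = 0.00404). At 10 µg/kg the mean was 0.936 ± 0.271 CPM (log2 0.83 ± 0.37, adjusted p = 0.119), and 3 of 5 mice were above every vehicle mouse. *Loxl2* shares 301 exon bases with the antisense gene *Gm27177*, which had 0 reads, with the same limit as for *Des*. Of the 3 other lysyl oxidase genes, *Loxl3* rose (log2 0.96 ± 0.22, adjusted p = 0.000867), while *Loxl1* (0.41 ± 0.38, adjusted p = 0.45) and *Loxl4* (0.31 ± 0.88, adjusted p = 0.83) were not called.

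*Mmp2* (ENSMUSG00000031740, chr8:92827291-92853420, plus strand) encodes gelatinase A, which digests denatured and basement membrane collagen and is made mainly by stellate cells and fibroblasts in liver. Levels were 3.33, 2.16, 1.54, 1.49 and 0.758 CPM in vehicle mice and 2.97, 3.72, 3.15, 1.67 and 4.97 CPM at 30 µg/kg. Only 2 of the 5 mice at 30 µg/kg were above the highest vehicle mouse, replicate 1. *Mmp2* rose 1.79-fold (log2 0.84 ± 0.30 SE, adjusted p = 0.0295). The call was lost without any 1 of 5 mice, with adjusted p-values of 0.0674, 0.0687 and 0.116 without vehicle replicates 3, 4 and 5 and of 0.0634 and 0.125 without replicates 2 and 5 at 30 µg/kg. It was also lost when only these groups entered the fit (adjusted p = 0.0717), and the test of any difference among groups did not pass (adjusted p = 0.201). The mean at 10 µg/kg, 2.27 CPM, was below that at 3 µg/kg, 2.44 CPM.

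Of 16 other MMP genes 13 were detected, and 6 rose and 1 fell at 30 µg/kg, with a median log2 fold change of 0.72. Summed, the 13 had 147.2 to 190.8 CPM in vehicle mice and 164.0 to 187.5 CPM at 30 µg/kg, ranges that overlapped. Most of that sum was *Mmp19*, with means of 127 CPM in vehicle mice and 116 CPM at 30 µg/kg. It was not called (log2 -0.13, adjusted p = 0.505). Whether the sums separate without *Mmp19* was not tested. The collagenase gene *Mmp13* (log2 4.63 ± 0.46, adjusted p = 1.34e-10), the matrilysin gene *Mmp7* (4.63 ± 0.57, adjusted p = 1.85e-08), the macrophage elastase gene *Mmp12* (4.59 ± 0.57, adjusted p = 3.18e-08) and the neutrophil collagenase gene *Mmp8* (4.48 ± 0.87, adjusted p = 0.000109) had much larger differences than *Mmp2*. In vehicle mice *Mmp13*, *Mmp7*, *Mmp12* and *Mmp8* were near the floor, with means of 0.214, 0.0609, 0.266 and 0.0329 CPM. None of them had more than 7 reads in a vehicle mouse, and *Mmp2* had a mean of 1.85 CPM there. At 30 µg/kg their means were 5.33, 1.66, 6.61 (SD 6.3) and 0.947 CPM. *Mmp12* is named for macrophages and *Mmp8* for neutrophils, cells other than the stellate cell. The gene that fell was *Mmp15*, which encodes a membrane-bound MMP (log2 -0.50, adjusted p = 0.000917), and its call was lost with scaling by library totals alone. Of 8 ADAMTS protease genes 3 rose and 1 fell. *Adamts5* (log2 1.85 ± 0.22), *Adamts1* (1.36 ± 0.19) and *Adamts15* (1.44 ± 0.32) rose, and *Adamts7* fell by 1.70 on the log2 scale.

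**Figure D3:**
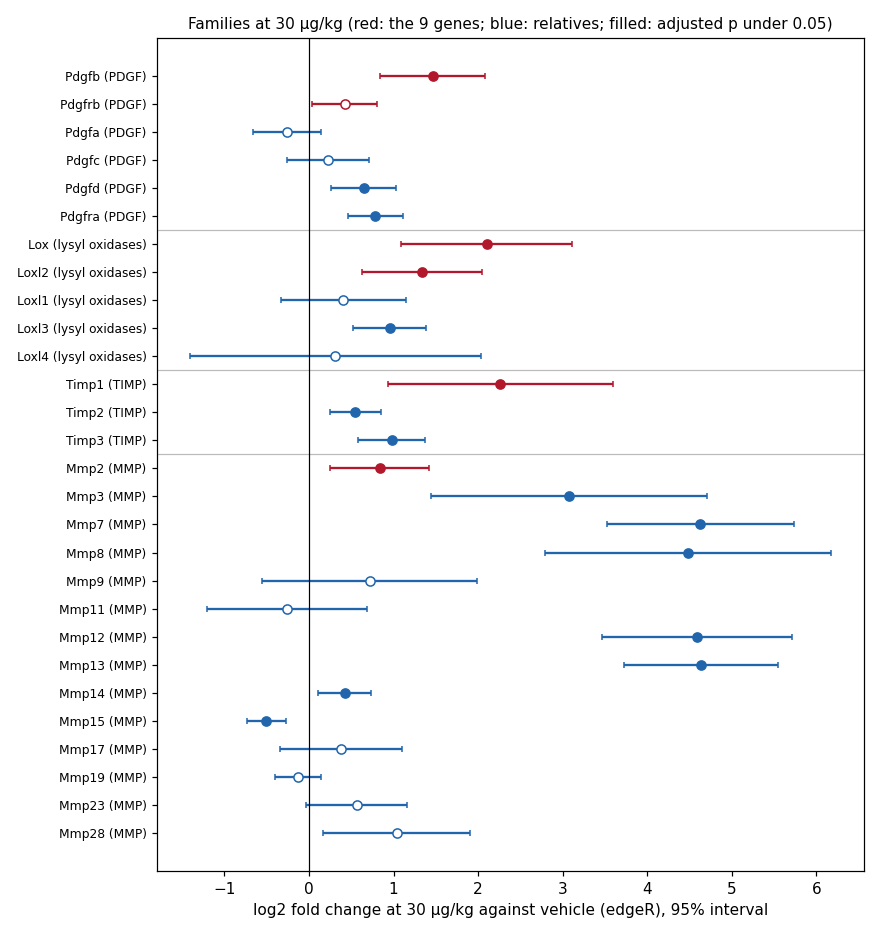
Log2 fold change at 30 µg/kg against vehicle with its 95% interval (horizontal axis) for the detected genes of the PDGF, lysyl oxidase, TIMP and MMP families (vertical axis), with the genes of the 9 in red, their relatives in blue and filled points where the adjusted p was under 0.05. *Timp1* (2.26), *Lox* (2.10) and *Pdgfb* (1.46) have the largest estimates of their families, while *Mmp2* (0.84) lies below *Mmp3*, *Mmp7*, *Mmp8*, *Mmp12* and *Mmp13*, which were called, and *Mmp28* (1.04), which was not.

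The genes whose products these enzymes and growth factors act on were described from further lists. Of 12 collagen genes 11 rose at 30 µg/kg and none fell, with a median log2 fold change of 1.08. The type I collagen genes *Col1a1* (log2 2.41 ± 0.33, adjusted p = 2.52e-07) and *Col1a2* (1.73 ± 0.22, adjusted p = 6.68e-08), *Col6a3* (1.55 ± 0.20) and *Col14a1* (1.07 ± 0.17) had the smallest adjusted p-values. With 10 µg/kg 8 of the 12 were already called higher, at a dose where *Pdgfb* was the 1 gene called among the 9. Of 23 other matrix protein genes 19 rose and 1 fell, with a median of 0.77. *Tnc*, encoding tenascin C, was the most changed of those named (log2 4.32 ± 0.34), followed by the proteoglycan gene *Vcan* (2.85 ± 0.44), the nidogen gene *Nid1* (1.20 ± 0.16) and the laminin gene *Lamc1* (0.72 ± 0.12). The gene that fell was *Fn1*, encoding fibronectin, which hepatocytes also secrete (log2 -0.44, adjusted p = 0.00337).

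Of 17 genes for the other TGF-beta ligands, their latent carriers, receptors and SMADs, 9 rose and 2 fell at 30 µg/kg, with a median of 0.54. *Tgfb2*, the gene of a second ligand, had a far larger difference than *Tgfb1* (log2 3.95 ± 0.33, adjusted p = 1.13e-12). The latent carrier gene *Ltbp1* (1.47 ± 0.23), the endothelial receptor gene *Acvrl1* (1.12 ± 0.24) and the type II receptor gene *Tgfbr2* (0.74 ± 0.12) also rose. The genes that fell were *Itgav* (log2 -0.39) and *Smad4* (-0.30), whose calls were lost, like that of *Fn1*, with scaling by library totals alone. Of 12 target and feedback genes of TGF-beta 2 rose and 1 fell, with a median of 0.35, and the share that rose was also near that of all genes. *Thbs1*, encoding thrombospondin 1, rose by 2.29 ± 0.42 on the log2 scale, and *Tgif1*, a repressor of SMAD signalling, fell by 0.87. *Tgfbi* (log2 0.34 ± 0.16, adjusted p = 0.0944) was not called. The count of target genes called higher was 4 with only the vehicle and 30 µg/kg mice in the fit, and 5 with scaling by library totals alone.

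Divided by exon length, the mean vehicle levels of the 9 genes fell into a higher and a lower set. *Pdgfrb* had 1.16 CPM per kilobase, *Des* 0.798, *Tgfb1* 0.766, *Acta2* 0.654 and *Mmp2* 0.550. *Pdgfb* followed with 0.169, *Timp1* with 0.112, *Lox* with 0.104 and *Loxl2* with 0.100 CPM per kilobase, and the last 3 differed by less than the spread between mice. At 30 µg/kg the order was *Pdgfrb* (1.55 CPM per kilobase), *Tgfb1* (1.27), *Acta2* (1.07), *Mmp2* (0.978), *Des* (0.906), *Timp1* (0.538), *Pdgfb* (0.474), *Lox* (0.433) and *Loxl2* (0.252). All 4 genes of the lower set were among the 6 called. That set was defined on the same vehicle mice that are the reference of the calls. The share called among all genes of similar level was not computed.

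Markers of several other cell types also differed from vehicle mice at 30 µg/kg, and some already did so with less TCDD. Of 8 endothelial markers, 6 were called higher with 10 µg/kg, where 1 of the 9 genes was called. Of the macrophage and monocyte markers, 2 were called with 3 µg/kg (median log2 fold change 0.98) and 1 with 10 µg/kg (0.72). Their median sum was highest with 30 µg/kg (347 CPM). The highest sums of a mouse belonged to the 0.01 µg/kg (842 CPM) and 3 µg/kg (536 CPM) groups. Of 11 macrophage and monocyte markers, 5 rose at 30 µg/kg and none fell, with a median log2 fold change of 1.08, and they summed to between 134 and 222 CPM in vehicle mice and between 142 and 371 CPM at 30 µg/kg. *Ptprc* (log2 1.25 ± 0.33), *Ccr2* (1.12 ± 0.31), *Itgam* (1.42 ± 0.45) and *Cd68* (1.08 ± 0.35) were among them. The count was 8 without the 2 libraries that stood apart and 9 with only the vehicle and 30 µg/kg mice in the fit. Of 8 endothelial markers 6 rose, with a median of 0.64, from 141 to 186 summed CPM in vehicle mice to 174 to 281 CPM, led by *Pecam1* (0.99 ± 0.18), *Vwf* (1.24 ± 0.24), *Kdr* (0.56 ± 0.13) and *Cdh5* (1.01 ± 0.24). Of 8 lymphocyte markers 3 rose, *Ms4a1* and *Cd8a* among them, from 2.99 to 4.03 summed CPM to 4.12 to 8.36 CPM, and of 6 platelet and megakaryocyte markers 2 rose (*Ppbp* and *Pf4*), from 2.10 to 3.50 summed CPM to 3.83 to 5.16 CPM. The platelet count fell to 1 without any 1 of 7 mice (vehicle replicates 2, 3, 4 and 5 and 30 µg/kg replicates 1, 3 and 5), with thinned libraries, with all genes of at least 1 read and with only the vehicle and 30 µg/kg mice in the fit. The lymphocyte count was 5 with scaling by library totals alone.

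Of 8 hepatocyte markers 5 fell and none rose at 30 µg/kg, with a median of -0.52, and with scaling by library totals alone 3 were lower and 1 was higher. *Fgb* (log2 -0.88), *Cps1* (-0.99), *Ttr* (-0.34) and *Serpina1c* (-0.59) were among those that fell, and the summed level ran from 108100 to 159300 CPM. None of 7 cholangiocyte markers (summed 62.6 to 85.8 CPM in vehicle mice and 65.1 to 82.4 CPM at 30 µg/kg) and none of 4 mesothelial markers (3.65 to 8.14 and 4.74 to 8.45 CPM) was called, though scaling by library totals alone called 1 cholangiocyte marker higher. Each marker of these lists had reads in both groups. The summed stellate cell identity genes ran from 466 to 576 CPM at 30 µg/kg, all above the vehicle range. *Reln* alone had a mean of 178 CPM there and of 54.5 CPM in vehicle mice, and 3 of the 15 genes were called. Whether the sums separate without *Reln* was not tested. Replicate 4 at 30 µg/kg was the lowest of its group in 8 of the 9 genes, in the macrophage sum (142 CPM), the endothelial sum (174 CPM), the lymphocyte sum (4.12 CPM) and the collagen sum (263 CPM). Its *Cyp1a1* was 9064 CPM, the highest of all libraries. The part of these other cells in the differences of the 9 genes was not tested.

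**Figure D4:**
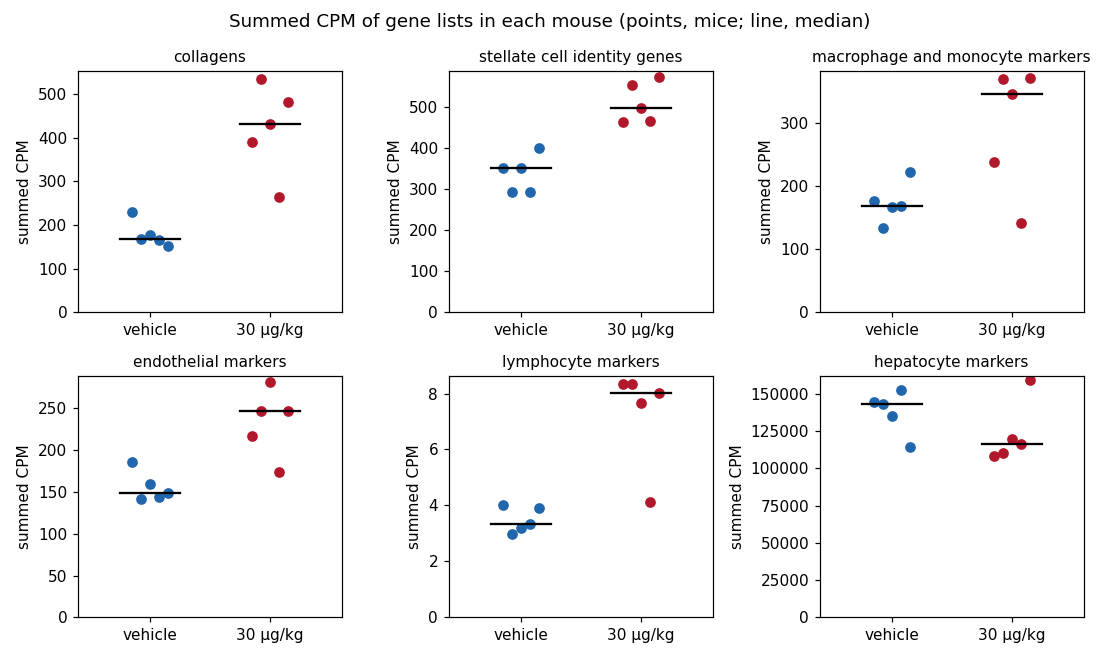
Summed CPM of 6 gene lists (vertical axes) in each vehicle mouse and each mouse at 30 µg/kg (horizontal axes), with a point for each mouse and a line for the median. The collagen, stellate cell identity and lymphocyte sums of the groups do not overlap, and the macrophage sum of 1 mouse at 30 µg/kg (142 CPM) lies within the vehicle range of 134 to 222 CPM. Within the stellate cell identity sum *Reln* has a mean of 54.5 CPM in vehicle mice and 178 CPM at 30 µg/kg.

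Whether the 9 genes varied together among mice of the same dose was examined by removing each group's mean from log2 CPM and correlating the residuals of 45 mice for the 36 pairs. Of these pairs 34 had a positive Pearson's r, and 10 passed an adjusted p of 0.05 in a permutation of mice within groups. *Pdgfrb* was in 5 of the 10, with *Loxl2* (r = 0.54, rho = 0.45, permutation p = 0.0019 and 0.00704, adjusted p = 0.0137 and 0.03), *Mmp2* (r = 0.54, rho = 0.53, permutation p = 0.00034 and 0.00078, adjusted p = 0.00702 and 0.0162), *Lox* (r = 0.53, rho = 0.47, permutation p = 0.00157 and 0.00404, adjusted p = 0.0137 and 0.0288), *Tgfb1* (r = 0.51, rho = 0.49, permutation p = 0.0036 and 0.00232, adjusted p = 0.0185 and 0.0278) and *Des* (r = 0.42, rho = 0.45, permutation p = 0.00803 and 0.00561, adjusted p = 0.0361 and 0.0288).

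*Lox*, *Loxl2* and *Mmp2*, which passed with *Pdgfrb*, also passed with each other by Pearson's r. *Loxl2* varied with *Mmp2* (r = 0.53, rho = 0.52, permutation p = 0.00039 and 0.0009, adjusted p = 0.00702 and 0.0162) and with *Lox* (r = 0.52, rho = 0.45, permutation p = 0.00111 and 0.00552, adjusted p = 0.0133 and 0.0288). *Lox* and *Mmp2* had r = 0.52 and rho = 0.40 (permutation p = 0.00262 and 0.0168, adjusted p = 0.0157 and 0.0503), so that the rank correlation missed the threshold. *Acta2* passed with *Lox* (r = 0.44, rho = 0.44, permutation p = 0.0128 and 0.00751, adjusted p = 0.046 and 0.03) and *Pdgfb* with *Tgfb1* (r = 0.37, rho = 0.45, permutation p = 0.0125 and 0.00467, adjusted p = 0.046 and 0.0288). Without the 2 mice farthest from the median of the first gene of a pair, r of the 10 pairs ran from 0.34 to 0.54. *Pdgfb* with *Lox* (r = 0.07), *Loxl2* (r = 0.07) and *Mmp2* (r = -0.16) did not pass. By rank correlation 11 pairs passed, among them *Tgfb1* with *Timp1* and with *Mmp2*, and 9 pairs passed by both. These values share libraries, and residual log2 CPM also correlated with log2 library size, with r from 0.07 for *Lox* to 0.44 for *Tgfb1*.

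**Figure D5:**
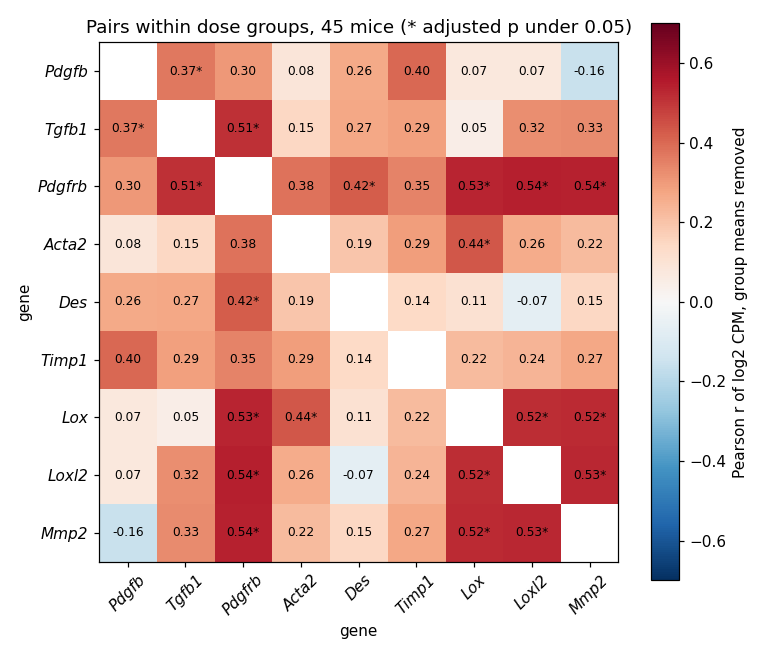
Pearson's r of log2 CPM between the 9 genes (both axes) over 45 mice after the mean of each dose group was removed, with an asterisk where the permutation p adjusted over 36 pairs was under 0.05. *Pdgfrb* has asterisks with *Tgfb1*, *Des*, *Lox*, *Loxl2* and *Mmp2*, and *Timp1* has none.

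Over all 45 mice, doses included, the genes whose log2 CPM was most like each of the 9 were found among 12412 genes with a mean of at least 1 CPM, as a description. *Mmp2* was most like the collagen genes *Col3a1* (r = 0.81), *Col1a1* (0.77) and *Col4a1* (0.75), and *Loxl2* was most like *Col4a1* (0.79), the fibrillin gene *Fbn1* (0.76) and *Col5a1* (0.76). *Pdgfrb* was most like *Pea15a* (0.82), the laminin gene *Lamb1* (0.80) and *Col5a1* (0.78). *Tgfb1* was most like the immune kinase gene *Syk* (0.86), the macrophage marker *Cd68* (0.85) and *Pitpnm1* (0.85). The 45 mice include replicate 5 at 0.01 µg/kg, where *Tgfb1* was 8.98 CPM, and r without that library was not computed. *Pdgfb* was most like *Cers5* (0.81), *Lgals3* (0.79), which encodes galectin 3, and *Vsir* (0.78). *Lox* was most like the caveolar gene *Cavin1* (0.82), the endothelial gene *Cd93* (0.78) and *Anxa1* (0.78). *Acta2* had lower values, with *Tagln* (0.67), *Lamb2* (0.66) and *Cavin1* (0.63). *Des* was most like *Zdhhc1* (0.77), *Dxo* (0.72) and *Pcolce* (0.69), and *Timp1* was most like *Amz1* (0.77), *Oxct1* (0.76) and the cytokine receptor gene *Csf2rb* (0.74).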

How the data were processed

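Liver RNA of 45 mice, 5 in each of 9 dose groups, was analysed from raw counts of reads per Ensembl gene. The authors made these deposited counts from single-end reads trimmed with Cutadapt and FASTX, aligned to GRCm38 with Bowtie and TopHat 1.4.1 and counted with HTSeq 0.6.1 in intersection-nonempty mode, without normalization, so that reads with several alignments were left out. The library kit does not mark strand. Between 10.7 and 18.4% of uniquely aligned reads fell on no gene or were ambiguous and entered neither library sizes nor tests. Libraries were pooled 10 at a time for sequencing according to the study's methods and the pools are not named in the labels. Values within pools could therefore not be compared. No 2 libraries agreed within sampling noise.

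Groups were taken from the labels. Replicates were numbered in accession order and pair nothing. Counts were normalized with TMM and tested in edgeR 4.0.16 (R 4.3.3) with the quasi-likelihood test, 1 coefficient per group, all 45 mice in 1 fit, and Benjamini-Hochberg adjustment over 17464 genes with more than 4 reads in any sample. This replaces the authors' semi-parametric and empirical Bayes procedure. Intervals on fold changes are 95% intervals from the standard error. Single genes were also compared by a two-sided exact permutation test of 5 mice against 5, whose smallest p is 0.00794. Pairs of genes were tested by 100000 permutations within groups, on log2 CPM with a prior count of 2. Alternatives used DESeq2 1.42.0, limma 3.58.1, other filters and scalings, thinned libraries and each mouse left out. The fit was checked on simulated data with known changes. These were set only in genes with higher mean counts than *Timp1*, *Lox* and *Loxl2*, so the check does not cover counts as low as theirs. Scripts ran in Python 3.11.15 with scipy 1.17.1.

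The 9 genes and the lists were chosen with earlier results of these data known. Named genes are the 9, all PDGF, lysyl oxidase and TIMP genes, the up to 4 genes with the smallest adjusted p at 30 µg/kg in each other list, the 3 most alike genes for each of the 9, and *Cyp1a1*. Some genes that this rule would name are not reported here. *Xist*, *Fn1*, *Smad4*, *Itgav*, *Mmp3*, *Mmp15*, *Mmp19* and *Mmp28* were named after their values were seen. Gene lengths and positions are from GENCODE M21 on GRCm38, a later release than the one counted, and promoters from RefSeq (GRCm38.p6). At the depth of these libraries 1 CPM is about 11.8 to 56.5 reads, and precision for *Timp1* is set by fewer.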

Additional observations from a re-analysis of the deposited data

Results flagged for a closer look

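In 81 groups of 5 mice (9 genes in 9 groups), 10 had a mouse far from the other 4. For normally distributed values chance gives about 1 in 20, or 4. Low counts are not normally distributed, so that expectation is only rough here. In vehicle mice it was *Lox* in replicate 1 at 1.27 CPM. At 30 µg/kg it was *Loxl2* in replicate 2 at 2.23 CPM, above the rest, and *Des* in replicate 5 at 2.81 CPM, below the rest. *Tgfb1* stood at 8.98 CPM in replicate 5 at 0.01 µg/kg, the library whose *Cyp1a1* was also above its group. *Acta2* stood apart in replicate 2 at 0.1 µg/kg (1.90 CPM) and in replicate 2 at 0.3 µg/kg (3.80 CPM). *Pdgfrb* did so in replicate 3 at 0.03 µg/kg (9.99 CPM), *Mmp2* in replicate 1 at 3 µg/kg (4.31 CPM), and *Timp1* in replicate 4 at 0.03 µg/kg, where 0.0761 CPM is a single read. *Pdgfb* was low in replicate 4 at 0.1 µg/kg (0.432 CPM).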

How the results depend on the processing

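Of 180 recomputed counts of the 9 genes and their pairs, 176 stayed within 1.5 times the reported count. At 3 µg/kg, limma on variance-stabilized counts called 1 of the 9 genes (*Pdgfb*) instead of 0, and leaving out single mice gave 0 to 1. At 10 µg/kg, fitting only the vehicle and that dose called 2 instead of 1. The test over all groups called 7 instead of 4 without a composition factor. That scaling raised the median log2 fold change of all genes at 30 µg/kg from 0.019 to 0.232 and the share of called genes that were higher from 52.3% to 80.3%, and it called 8 of the 9 genes at 30 µg/kg. Leaving out each mouse gave 4 to 6 called at 30 µg/kg. Of 510 recomputed log2 fold changes of single genes, 482 kept their direction and side of the threshold. None of those at 30 µg/kg reversed. At 3 µg/kg 8 reversed, none of them called: *Acta2* without replicate 3 of that dose (leaving out single mice gave -0.086 to 0.37), *Pdgfrb* with thinned libraries (-0.034), *Lox* without replicate 1 (-0.012, over single mice to 1.18) and *Timp1* without any 1 of 5 mice (over single mice -0.21 to 0.79). The cause was not tested. Of 684 recomputed counts of the other gene lists at 30 µg/kg, 24 moved by over 1.5 times or to or from 0. Of 72 exact permutation tests, 11 had p under 0.05 before adjustment and none after (smallest adjusted p = 0.19). The smallest p that 5 mice against 5 can give, 0.00794, was reached by 1 test (*Loxl2* at 30 µg/kg), and the others under 0.05 lay between 0.0159 and 0.0397. No paired analysis was possible because the replicate numbers follow accession order.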
